A study of Sus scrofa with 30 samples.

Results

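The acute-phase and antibacterial defence genes of milk are described here across the mammary cycle of the sow, namely *SAA3*, *LBP*, *HP*, *PGLYRP1*, *LTF*, *LCN2*, *CD14*, *TLR2* and *TLR4*. They were chosen by name as acute-phase and antibacterial genes, but with earlier results of these data known. Counts of them beside the share of all genes are therefore descriptive. Every transcript that the RefSeq annotation of Sscrofa11.1 assigns to them was taken, which gave 20 of the 61773 transcripts in the deposited table and 9 of its 26019 genes and loci. RNA-seq had been run on mammary tissue of 30 multiparous half-sibling sows, all Danish Landrace × Yorkshire crosses, with no treatment or gene edit. The sows also differed somewhat in age and body weight between stages, being youngest at MG and including the oldest at W2, and these differences and stage cannot be told apart. With 6 sows at each of 5 stages, gestation was sampled at its middle (MG, day 70) and late (LG, day 110), lactation early (EL, day 2 postpartum) and at its peak (PL, day 10 postpartum), and involution when 2 days had passed since weaning (W2). The tissue was whole parenchyma from a single gland on the left side, cut to avoid fat, skin and connective tissue. In such bulk tissue, fewer cells of a type and less RNA per cell cannot be told apart.

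Milk protects both the gland and the suckling young through proteins that the secretory epithelium and resident leukocytes release. Acute-phase proteins, best known as liver products that rise in blood during infection and injury, also have local mammary sources, and *SAA3* is the mammary form of serum amyloid A that is secreted into colostrum and milk. A second group acts on bacteria directly, by binding peptidoglycan (*PGLYRP1*), by withholding iron (*LTF*, lactoferrin) or by capturing the siderophores with which bacteria collect iron (*LCN2*, lipocalin 2). A further group senses bacteria: lipopolysaccharide is passed by lipopolysaccharide binding protein (*LBP*) to *CD14* and on to the receptor *TLR4*, while *TLR2* recognises bacterial lipoproteins.

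Before any comparison, 3 features of the samples set limits. First, 3 of the 6 samples of each stage were near-identical to each other. Where a transcript averaged 10 or more in a stage, their values differed pairwise by a median of at most 1.85%, against 18.6% to 53.7% among the other 3, and their mean equalled the mean of the other 3 to within a median of 0.741%. They carried up to 9 decimals, where the others carried 6. These samples were therefore not counted, and n = 3 sows per stage throughout (MG 1, 3 and 6, LG 1, 3 and 4, EL 3, 4 and 6, PL 2, 3 and 6, W2 2, 3 and 6). Second, the samples titled EL carry the description Mid-Gestation in another field, and those titled MG carry Early Lactation. The titles were followed, as in the columns of the table. Were the other field right, every MG and EL value below would exchange places, while the contrasts among LG, PL and W2, and each of PL or W2 with the other 4 stages, would stay as they are. Summed RNA of 6 milk protein genes was 11906 to 29461 in the samples titled MG and 63857 to 120785 in those titled EL.

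As a last feature, each sample's values, which the authors call FPKM (a level per transcript length), summed to between 997480 and 1002643. A near-constant sum is a property of TPM, which FPKM need not have, so levels below are shares of a sample's total per length whatever their name, and a few very abundant transcripts lower all others. This bore most on PL sample 2, whose 20 most abundant transcripts held 59.9% of its sum, against 25.6% to 43.0% in the other 14 samples. Its median ratio to the average sample was 0.566, against 0.836 to 1.28 elsewhere. It was the lowest of the 3 PL samples in 69.2% of the 19084 genes with a PL mean of at least 1. The median log2 change of all genes was −0.22 from EL to PL, 0.68 from PL to W2 and −0.47 for PL against the mean of the other 4 stages, and the changes below are to be read beside these shifts. The part of PL sample 2 and of this composition in a result was tested only by leaving the sample out and by rescaling.

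Together the 9 genes held a mean of 5.58% ± 1.22 of all expression units in PL (SD, n = 3), and only 0.159% ± 0.00718 in W2. The mean was 0.269% ± 0.0927 at MG, 0.482% ± 0.147 at LG and 0.808% ± 0.194 at EL. *SAA3* made up 77.1% ± 2.47 of the PL amount, and in the other stages its mean part of the 9 genes lay between 23.4% and 37.3%. By stage mean, *PGLYRP1* was the most abundant of the 9 genes in LG and EL, and *SAA3* in PL. In MG their means, 964 ± 564 and 829 ± 147, did not differ beyond their spread, and *PGLYRP1* was the higher of the pair in MG sample 1 only. In W2 *SAA3* and *LTF* had the highest means, 591 ± 99.3 and 587 ± 85.9, which did not differ beyond their spread.

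**Figure D1:**
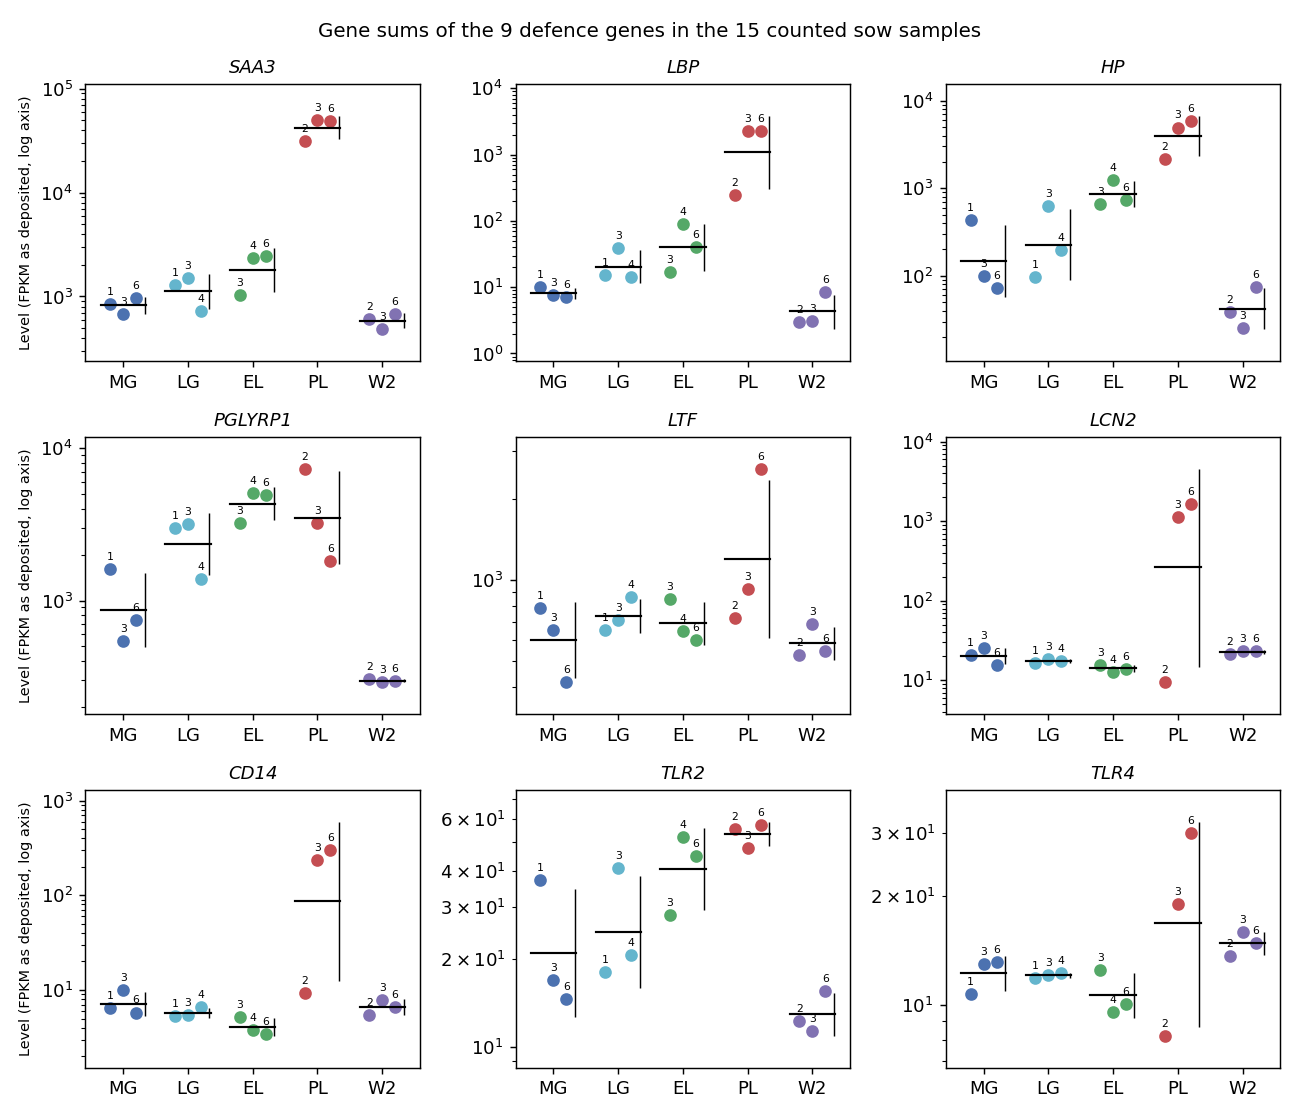
Gene level (sum of a gene's transcripts, FPKM as deposited, log axis) of the 9 defence genes in the 3 counted samples of each stage, each point labelled with its sample number. The horizontal line is the mean and the vertical line 1 SD, both computed on log2(value + 0.5) and drawn back on the FPKM scale. In *SAA3*, *LBP* and *HP* the 3 PL samples lie above all 12 others, in *LCN2* and *CD14* only PL samples 3 and 6 are far above the rest, and in *PGLYRP1* the 3 W2 samples lie below all others.

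Differences were tested with limma over all 26019 genes on log2(value + 0.5), and a gene passed at an adjusted p below 0.05. Across the 5 stages, 6 of the 9 genes passed the F-test (*SAA3*, adjusted p = 9.6e-06, *LBP*, 0.00067, *HP*, 0.0012, *PGLYRP1*, 0.0014, *TLR2*, 0.015, and *CD14*, 0.029), where 18.3% of all genes did. *LCN2* (adjusted p = 0.15), *LTF* (0.24) and *TLR4* (0.56) did not. Of the 20 transcripts, 7 passed the same test run over all transcripts, where 2.6% of all did. From EL to PL 4 transcripts rose, where 0.162% of all rose, and from PL to W2 9 fell, where 0.751% of all fell.

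Between successive stages, none of the 9 genes passed from MG to LG or from LG to EL, where 0.0115% and 0.0154% of all genes did, and 1 of the 9 had an unadjusted p below 0.05 in each (limma). From EL to PL, 3 rose (*SAA3*, *LBP* and *CD14*) and none fell, where 0.776% of all genes rose. From PL to W2, 6 fell (*SAA3*, *LBP*, *HP*, *PGLYRP1*, *CD14* and *TLR2*) and none rose, where 2.48% of all genes fell and 30.4% rose. The median log2 change of the 9 genes was 2.23 from EL to PL and −3.56 from PL to W2. These 2 contrasts share the PL samples, so their opposite signs are not separate observations. When the samples were rescaled by median ratio, all 9 genes fell from PL to W2, where 5.66% of all genes fell and 7.42% rose, and 4 rose from EL to PL (*SAA3*, *LBP*, *CD14* and *TLR4*), where 2.54% of all rose. Without PL sample 2 all 9 fell from PL to W2 as well (3.88% of all genes), and 5 rose from EL to PL (*SAA3*, *LBP*, *CD14*, *LCN2* and *TLR4*, with 3.72% of all).

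Against the other earlier stages, PL was higher than MG in 6 of the 9 genes (*SAA3*, *LBP*, *HP*, *PGLYRP1*, *CD14* and *TLR2*, with 2.23% of all genes higher) and higher than LG in 4 (*SAA3*, *LBP*, *HP* and *CD14*, with 1.62% of all). W2 was lower than EL in 2, *PGLYRP1* and *HP*, with 0.177% of all genes lower. No gene of the 9 passed for EL against MG, W2 against MG or W2 against LG, where 0.0269%, 0.0115% and 0.0346% of all genes did and 5, 2 and 5 of the 9 had an unadjusted p below 0.05 (limma). With PL set against the mean of the other 4 stages, 8 of the 9 were higher, all but *TLR4*, and 3.03% of all genes were higher and 27.3% lower. Under median ratio scaling all 9 were higher, with 7.41% of all genes higher and 8.96% lower. With W2 set against the other 4, 5 were lower (*SAA3*, *LBP*, *HP*, *PGLYRP1* and *TLR2*), and 0.315% of all genes were. By the samples themselves, the 3 PL samples were all above the 3 EL samples in 4 genes (*SAA3*, *LBP*, *HP* and *CD14*, and in 3.05% of all genes), the W2 samples all below the PL samples in 7 (all but *LCN2* and *TLR4*, and in 3.37% of all), and the EL samples all above the MG samples in 4 (*SAA3*, *LBP*, *HP* and *PGLYRP1*, and in 2.4% of all). Of the 5 genes lower in W2, only *SAA3* passed with every sample left out in turn, while *PGLYRP1* did not without W2 sample 3 (adjusted p = 0.060), *HP* not without any 1 W2 sample (up to 0.11), *LBP* not without any 1 W2 sample or MG sample 1, LG sample 1 or EL sample 6 (up to 0.13), and *TLR2* not without any 1 W2 sample, MG sample 1 or 6, LG sample 1 or 3, or EL sample 4 or 6 (up to 0.17).

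**Figure D2:**
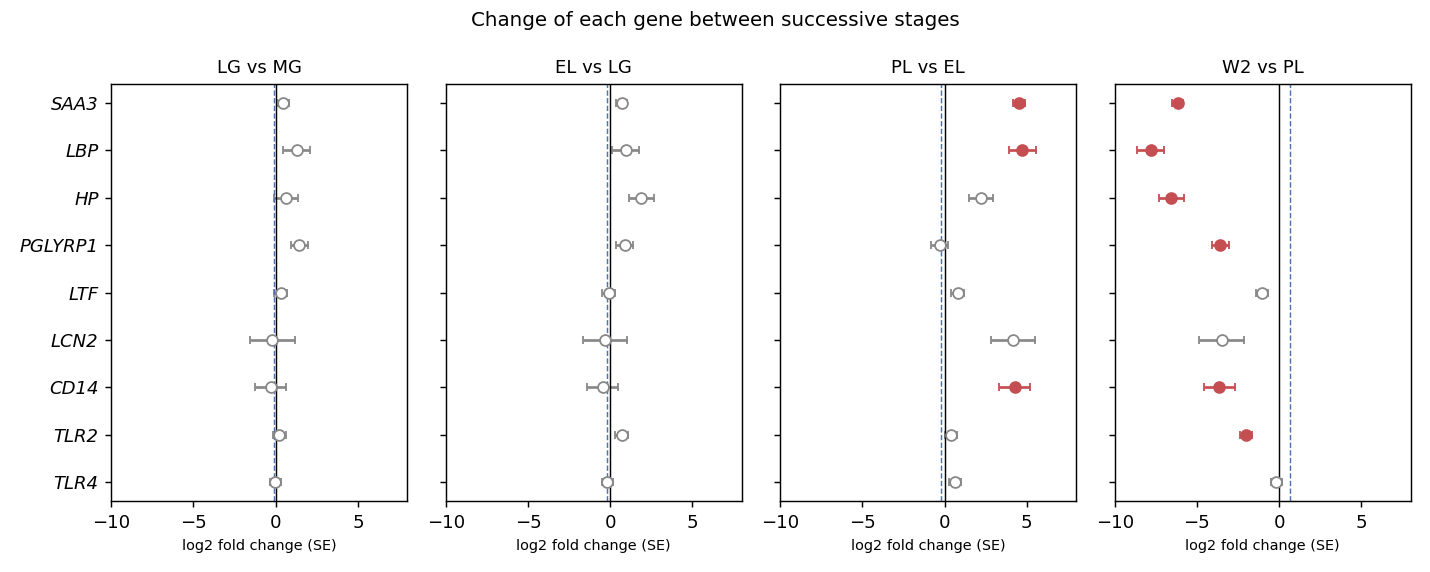
Limma log2 fold change with its standard error for each of the 9 genes between successive stages, n = 3 per stage. Filled red points passed at an adjusted p below 0.05, open points did not, and the dashed line is the median change of all genes. In the EL to PL panel 3 genes are filled on the right of 0, and in the PL to W2 panel 6 are filled on the left.

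*SAA3* (chr2:41021349-41025950), which codes for the mammary serum amyloid A, was the most abundant of the 9 genes in PL. Its gene level was 31130.5, 49876 and 48332 in the PL samples 2, 3 and 6. It was 1036, 2348 and 2444 in EL, 1292, 1508 and 718 in LG, 837, 677 and 971 in MG, and 613, 483 and 678 in W2. The 3 PL samples were thus all above the other 12, as were those of 1.1% of all genes. From EL to PL the level rose 23.3-fold (log2 fold change 4.54 ± 0.35 SE, limma adjusted p = 6.0e-05), and by day 2 after weaning it had changed by −6.17 ± 0.35 on the log2 scale (adjusted p = 2.4e-06). The means stood in the order PL, EL, LG, MG, W2, and each neighbouring pair below PL overlapped. An exact permutation test of the 3 PL samples against the other 12 gave a two-sided p of 0.0022, the smallest that 3 of 15 samples allow.

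*LBP* (chr17:41398935-41429467), whose protein extracts lipopolysaccharide from bacteria and hands it to CD14, followed the same order of stage means. Its level was 246, 2271 and 2232 in PL, with sample 2 the low one. It was 17.2, 90.6 and 40.2 in EL, 15.2, 39.1 and 14.3 in LG, 10.1, 7.59 and 7.08 in MG, and 2.94, 3.12 and 8.37 in W2. All 3 PL samples were above the other 12 in spite of the spread within PL, and LG lay wholly above MG without passing the test (log2 fold change 1.27 ± 0.82, limma adjusted p = 1). *LBP* rose 26.7-fold from EL to PL (log2 fold change 4.74 ± 0.82, adjusted p = 0.0072) and fell 224-fold from PL to W2 (−7.81 ± 0.82, adjusted p = 0.00012). These log2 fold changes were 5.80 and −8.87 without PL sample 2, and the rise was 4.14 without EL sample 3 and 5.33 without EL sample 4. With the EL and PL samples fitted alone, neither *SAA3* (adjusted p = 0.11) nor *LBP* (0.22) passed for EL to PL.

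*HP* (chr6:14980382-14985245) codes for haptoglobin, which binds free haemoglobin. In PL its level was 2179, 4941 and 5848. In EL it was 658, 1252 and 743, in LG 96.0, 622 and 197, in MG 433, 100.1 and 72.8, and in W2 39.0, 25.6 and 75.1. The PL samples were again above all 12 others, and the EL samples above the LG samples, while LG, MG and W2 overlapped in turn. The rise from EL to PL was 4.68-fold and did not pass (log2 fold change 2.23 ± 0.75, limma adjusted p = 0.12). PL was 17.4-fold above LG (adjusted p = 0.0041) and 27.0-fold above MG (adjusted p = 0.0012), log2 fold changes of 4.12 and 4.76. The first was 3.50 without LG sample 1 and 4.85 without LG sample 3, and did not pass with LG and PL fitted alone (adjusted p = 0.069), and the second was 5.53 without MG sample 1. From PL to W2 *HP* fell 93.2-fold (log2 fold change −6.54 ± 0.75, adjusted p = 0.00016). W2 was also 19.9-fold below EL (adjusted p = 0.033), a difference that did not pass with EL sample 4 (adjusted p = 0.12), EL sample 6 (0.085), or W2 sample 2 (0.071), 3 (0.11) or 6 (0.064) left out.

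*PGLYRP1* (chr6:52318544-52322504), whose protein binds the peptidoglycan of bacterial walls, had another course. Its level was already 1605, 541 and 747 in MG and 2989, 3164 and 1375 in LG. It was 3246, 5108 and 4911 in EL and 7333, 3222 and 1830.4 in PL, so that PL sample 2 was the highest of all samples while PL samples 3 and 6 lay below every EL sample. In W2 it was 304, 290.1 and 295, below all 12 other samples, as was the case for 0.142% of all genes. EL and PL did not differ beyond their spread (log2 fold change −0.30 ± 0.50, limma adjusted p = 0.81). From PL to W2 the level fell 11.8-fold (−3.56 ± 0.50, adjusted p = 0.00047), and W2 was 14.6-fold below EL (adjusted p = 0.0097). PL was 4.05-fold above MG (adjusted p = 0.013, and 0.061 without MG sample 3). The 3 W2 samples against the other 12 gave an exact permutation p of 0.0022. PL was higher than the mean of the other 4 stages by limma (log2 difference 1.46 ± 0.39, adjusted p = 0.015), but not without PL sample 2 (0.93, adjusted p = 0.12), and the exact permutation p was 0.18.

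*LTF* (chr13:29413886-29445751), the gene of lactoferrin and a major iron-binding protein of milk, was expressed at every stage. It stood at 786, 653 and 417 in MG, 654, 708 and 867 in LG, 847, 646 and 601 in EL, 721, 925 and 2580.2 in PL, and 527, 685 and 548 in W2. Before rescaling, sample 6 of PL was the highest of all 15, and PL sample 2, with a median ratio of 0.566, lay within the range of MG, LG and EL. No pair of stages differed by limma on these values. From PL to W2 the log2 fold change was −1.04 ± 0.39 (adjusted p = 0.055) with every W2 sample below every PL sample. PL against the other 4 stages passed narrowly (log2 difference 0.88 ± 0.30, adjusted p = 0.045). Without PL sample 6 the difference was 0.33 (adjusted p = 0.28), and it also failed with any 1 of 11 other samples left out (adjusted p between 0.050 and 0.067). Under median ratio and quantile scaling *LTF* passed over the stages and was higher in PL than in MG, LG and W2. Under quantile scaling it was also higher in PL than in EL.

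*LCN2* (chr1:268609975-268614651) divided the PL samples. Its level was 9.43 in sample 2, the lowest of all 15 before rescaling, and 1122 and 1647 in samples 3 and 6. In the other stages it lay between 12.9 and 25.2, at 20.8, 25.2 and 15.7 in MG, 16.8, 18.7 and 17.3 in LG, 15.6, 12.9 and 14.1 in EL, and 21.5, 23.5 and 23.7 in W2. The change from EL to PL did not pass (log2 fold change 4.17 ± 1.36, limma adjusted p = 0.11), nor did that from PL to W2 (−3.50 ± 1.36, adjusted p = 0.065), and against the other 4 stages PL was higher (3.80 ± 1.07, adjusted p = 0.019). Without PL sample 2 the EL to PL change was 6.54 (adjusted p = 8.0e-08) and the PL to W2 change −5.86 (adjusted p = 2.6e-07). The fall from PL to W2 also passed under median ratio and quantile scaling. Without sample 3 or sample 6 the difference of PL from the other 4 stages no longer passed (2.76, adjusted p = 0.11, and 2.48, 0.12), and without sample 2 it was 6.17.

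*CD14* (chr2:142348036-142349686), the co-receptor for lipopolysaccharide on macrophages, showed the same division. It was 9.23 in PL sample 2 and 234 and 298 in samples 3 and 6. Elsewhere it lay between 3.45 and 9.92, at 6.43, 9.92 and 5.78 in MG, 5.28, 5.48 and 6.61 in LG, 5.15, 3.80 and 3.45 in EL, and 5.38, 7.90 and 6.63 in W2. On these values, which were not rescaled, 1 MG sample was thus above PL sample 2. The 3 EL samples were below all 12 others, as for 0.296% of all genes. PL sample 2 had the lowest median ratio of all samples, at 0.566, and neither order was tested after rescaling. *CD14* passed from EL to PL (log2 fold change 4.26 ± 0.93, limma adjusted p = 0.023) and from PL to W2 (−3.64 ± 0.93, adjusted p = 0.011). The rise from EL to PL did not pass with PL sample 3 (adjusted p = 0.062), PL sample 6 (0.064), or EL sample 3 (0.074), 4 (0.057) or 6 (0.081) left out. Without PL sample 2 it was 5.85 (adjusted p = 8.8e-07). The fall from PL to W2 was −5.23 without PL sample 2 and −2.76 without sample 6. With only the compared stages fitted, neither the rise (adjusted p = 0.35) nor the fall (0.13) passed. The test over the stages did not pass without PL sample 3 (adjusted p = 0.12), PL sample 6 (0.12), LG sample 1, EL sample 4 or 6, or W2 sample 3 or 6 (between 0.050 and 0.055), and PL against MG or LG did not without PL sample 3 or 6, MG sample 6 or any 1 LG sample (between 0.051 and 0.059).

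*TLR2* (chr8:75416257-75428370), the receptor for bacterial lipoproteins, was even across the 3 PL samples, at 55.4, 47.8 and 57.2. It was 28.2, 52.3 and 44.9 in EL, 18.0, 40.8 and 20.6 in LG, 37.2, 16.9 and 14.6 in MG, and 12.3, 11.3 and 15.6 in W2. Every neighbouring pair in the order PL, EL, LG, MG, W2 overlapped, and W2 lay wholly below PL, EL and LG. *TLR2* fell 4.00-fold from PL to W2 (log2 fold change −2.00 ± 0.37, limma adjusted p = 0.0021) and did not differ from EL to PL beyond its spread (0.39 ± 0.37, adjusted p = 0.62). PL was 2.50-fold above MG (adjusted p = 0.022), a difference that failed without MG sample 3 (adjusted p = 0.086), MG sample 6 (0.088) or PL sample 2 (0.056).

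*TLR4* (chr1:258044610-258054641), the receptor for lipopolysaccharide, was the member with the least change. It was 10.7, 13.0 and 13.1 in MG, 11.9, 12.1 and 12.3 in LG, 12.5, 9.54 and 10.1 in EL, 8.22, 19.1 and 30.0 in PL, and 13.7, 15.9 and 14.9 in W2. Before rescaling, the lowest and the highest of all 15 samples were both PL samples. No pair of stages passed, the largest log2 fold change being 0.64 ± 0.34 from EL to PL (limma adjusted p = 0.34). Without PL sample 2 that change was 1.13 (adjusted p = 0.0046), and PL stood above the other 4 stages by 0.93 (adjusted p = 0.0023). Under median ratio and quantile scaling *TLR4* was higher in PL than in each of the other 4 stages.

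The exact permutation test of PL against the other 12 samples gave p = 0.0022 for *LBP* and *HP* as for *SAA3* (0.0099 after Benjamini-Hochberg adjustment over the 18 such tests run), 0.0044 for *CD14* (adjusted 0.013), 0.013 for *LTF* and *TLR2* (adjusted 0.026), 0.029 for *LCN2* (adjusted 0.051) and 0.13 for *TLR4* (adjusted 0.19). For W2 against the other 12 the exact permutation p was 0.0044 for *TLR2* (adjusted 0.013), 0.011 for *HP* (adjusted 0.026), 0.048 for *LBP* (adjusted 0.079) and 0.086 for *SAA3* (adjusted 0.13), and between 0.27 and 0.99 for *LTF*, *LCN2*, *CD14* and *TLR4*. With 3 samples against 3, an exact permutation p cannot go below 0.1.

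The 3 PL samples differed from each other in most of the 9 genes. Relative to the mean of the 12 samples of the other stages, *SAA3*, *LBP* and *HP* were high in all 3, with sample 2 the lowest, and *TLR2* was alike in all 3. In sample 2 *LCN2* was below the mean of the other stages, by 0.93 on the log2 scale, and *CD14* was within their range, and *PGLYRP1* alone was highest in sample 2. These levels were not rescaled, and sample 2 had the lowest median ratio of all samples, at 0.566. The low *LCN2* of sample 2 was thus not separated from the low scale of that sample, and rescaled levels of single samples were not examined. Sample 2 was the lowest PL sample for 7 of the 9 genes, and of 69.2% of all genes, as given above.

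**Figure D3:**
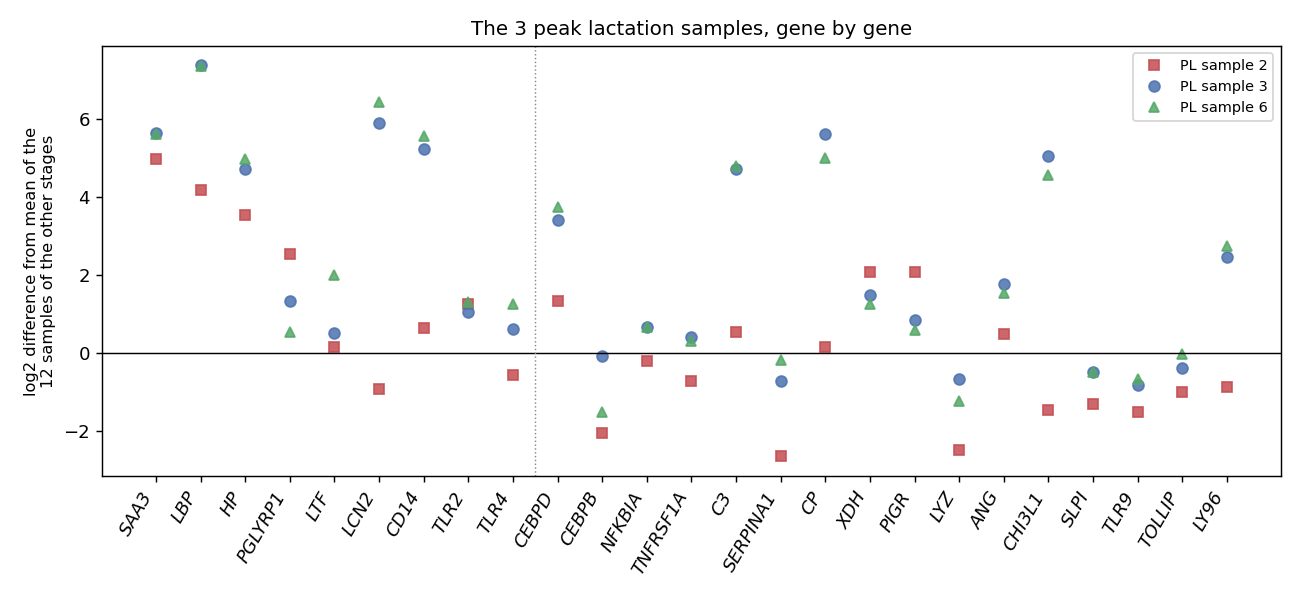
Each PL sample's log2(value + 0.5) minus the mean over the 12 samples of the other stages, for the 9 defence genes (left of the dotted line) and 16 further genes of the surrounding pathways (right). Samples 3 and 6 lie close together in most genes, and sample 2 lies well below them in *LCN2*, *CD14*, *C3*, *CP*, *CHI3L1* and *LY96* and above them in *PGLYRP1*, *XDH* and *PIGR*.

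The transcripts of a gene did not all carry its level. *SAA3* has 3 annotated transcripts, of which NM_001044552.1 held 49.6% to 87.7% of the gene (median 81.0% over 15 samples). That transcript was at 27299.8, 41008 and 40003 in PL and XM_013994502.2 at 3547, 8128 and 7666. All 3 transcripts rose from EL to PL and fell from PL to W2, the smallest of the 6 changes being a rise of 3.88 ± 0.54 on the log2 scale in XM_013994503.2 (limma over all transcripts, adjusted p = 0.0059). *HP* came almost wholly from NM_214000.2, with 91.8% to 99.7% of the gene, and the share of XM_005664359.2 was highest in PL sample 3, at 8.22%.

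*LTF* came mainly from XM_021068563.1. The other transcript, NM_214362.2, held a median of 6.88% of the gene, but 44.1% in PL sample 2 and 28.9% in EL sample 4. In PL, NM_214362.2 was at 318, 19.7 and 355 and XM_021068563.1 at 403, 905 and 2225, so samples 2 and 6 were alike for the former and far apart for the latter. Neither differed from EL to PL by limma (adjusted p = 0.76 and 0.68).

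In *LCN2* the split between NM_001244410.1 and XM_021088538.1 ran from 2.49% to 100% for the former with no order by stage, at levels under 25 outside PL. In PL, NM_001244410.1 was at 9.43, 472 and 1206, and XM_021088538.1 was listed at 0 in sample 2 and at 650.0 and 441 in samples 3 and 6. Of the 5 *TLR2* transcripts, XM_005653576.3 held 40.2% to 82.7% of the gene and was the only one of the 5 to fall from PL to W2 by limma (log2 fold change −1.87 ± 0.46, adjusted p = 0.028). *TLR4* came from NM_001113039.2 for 74.0% to 100% in the 3 transcripts analysed. *LBP*, *PGLYRP1* and *CD14* have 1 transcript each. The transcripts of a gene overlap, so how the authors' estimate divided shared reads between them can move these shares, which was not tested.

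**Figure D4:**
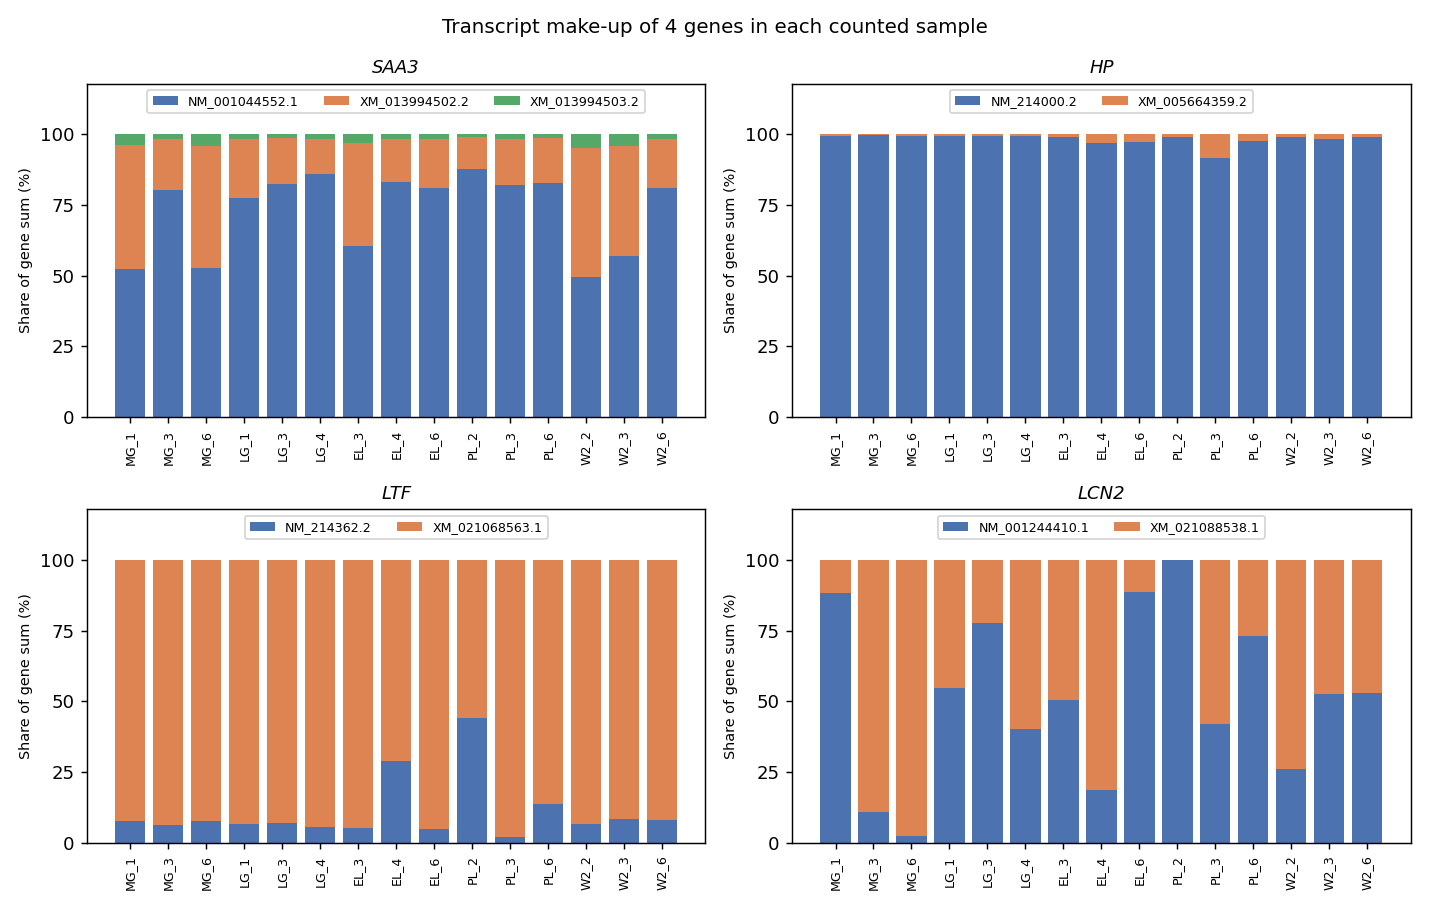
Share of the gene sum (%) held by each annotated transcript of *SAA3*, *HP*, *LTF* and *LCN2* in the 15 counted samples. *HP* is nearly all NM_214000.2, *LTF* is mostly XM_021068563.1 except in PL sample 2 and EL sample 4, and *LCN2* has no steady split.

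Genes of the surrounding pathways are given by lists. Of 16 other acute-phase plasma proteins 7 were in the table. Over the stages, where 18.3% of all genes passed, 1 of the 7 did, *C3*, the central complement component. Its level was 75.2, 1382 and 1461 in PL samples 2, 3 and 6 and between 27.9 and 95.8 in the other 12 samples, so that it was divided within PL as *LCN2* and *CD14* were. *C3* rose from EL to PL (log2 fold change 3.88 ± 0.88, limma adjusted p = 0.027) and fell from PL to W2 (−3.35 ± 0.88, adjusted p = 0.013). The rise did not pass without PL sample 3 or 6 or any 1 EL sample (adjusted p between 0.072 and 0.095), the fall not without W2 sample 6 (0.054), and the test over the stages passed only with all samples in or with PL sample 2 left out (otherwise between 0.053 and 0.16). *CP*, which codes for the copper carrier ceruloplasmin, was at 0.188, 30.3 and 19.5 in PL and no higher than 1.97 elsewhere, and fell from PL to W2 (−3.76 ± 1.08, adjusted p = 0.019), though not without PL sample 3 or 6 or W2 sample 3 or 6 (adjusted p between 0.050 and 0.068). The protease inhibitor *SERPINA1* was at 2.60, 11.3 and 16.8 in PL and at 14.4, 28.8 and 29.1 in W2. Against the other 4 stages, 2 of these 7 were higher in PL (*C3* and *CP*) and 1 lower (*SERPINA1*), where 3.03% and 27.3% of all genes were. *SERPINA1* did not pass under median ratio or quantile scaling or without PL sample 2 (limma adjusted p = 0.34). The median log2 difference of the 7 was −0.08.

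Of 24 other secreted antibacterial proteins 13 were in the table and 9 passed over the stages, where 18.3% of all genes did. From PL to W2, 7 of them fell (*XDH*, *PIGR*, *ANG*, *LPO*, *S100A8*, *S100A9* and *S100A12*) and 2 rose (*LYZ* and *WFDC2*), where 2.48% and 30.4% of all genes did. These counts were the same under median ratio scaling, where 5.66% and 7.42% of all genes did, and under quantile scaling (5.99% and 7.64%). *XDH*, whose product xanthine oxidoreductase forms part of the milk fat globule coat, was at 1363, 908 and 768 in PL, at 809.6, 1765 and 1294 in EL and between 62.7 and 131 in W2. It fell by 3.29 ± 0.51 on the log2 scale from PL to W2 (limma adjusted p = 0.00078). *PIGR*, the receptor that carries immunoglobulin A into milk, was at 769.6, 327 and 275 in PL, with sample 2 highest as for *PGLYRP1*, and fell by 2.16 ± 0.39 (adjusted p = 0.0019).

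*LYZ*, the gene of lysozyme, went the other way. It was at 3.88, 14.8 and 9.93 in PL and 64.8, 41.3 and 29.4 in W2, a rise of 2.29 ± 0.42 on the log2 scale (limma adjusted p = 0.0020). *ANG*, the gene of angiogenin, was at 20.8, 50.7 and 43.1 in PL and between 10.8 and 18.5 elsewhere. *CHI3L1* was at 22.0, 2075 and 1466 in PL and did not pass (EL to PL log2 fold change 3.82 ± 1.25, adjusted p = 0.11). The change was 5.91 without PL sample 2 (adjusted p = 3.5e-05), and PL was above the other 4 stages under median ratio scaling (3.28, adjusted p = 0.029). *SLPI* lay between 22.6 and 137 over all samples and did not pass either. The calgranulins, named here after their values were seen, were low: *S100A8*, *S100A9* and *S100A12* reached 12.7, 13.9 and 19.8 in PL sample 6 and no more than 1.39 outside PL.

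Of 24 genes of pattern recognition and Toll-like receptor signalling 21 were in the table, and only *TLR9* passed over the stages, where 18.3% of all genes did. It was at 0.103 to 0.588 in PL and up to 3.41 elsewhere, and it passed with all samples in or without MG sample 1 but with no other sample left out (adjusted p between 0.050 and 0.096). Against the other 4 stages, 3 were lower in PL (*TLR9*, *LY86* and *MAP3K7*) and none higher, where 27.3% of all genes were lower. Under median ratio and quantile scaling, however, the 3 that passed were *LY96*, *IRAK1* and *NOD2*, all higher, where 7.41% and 7.39% of all genes were. *LY96*, which codes for MD-2, the partner of TLR4, was at 4.82, 53.0 and 64.6 in PL and between 6.73 and 12.3 elsewhere, and its EL to PL change did not pass with all samples (log2 fold change 1.77 ± 0.68, limma adjusted p = 0.17) but did without PL sample 2. *TOLLIP*, an adaptor that dampens Toll-like receptor signals, lay between 73.5 and 183 and did not pass.

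Of 24 acute-phase cytokines, their receptors and transcription factors 18 were in the table, with *IL1A*, *IL1B*, *IL6* and *OSM* not analysed here. Over the stages 2 of the 18 passed (*CEBPD* and *CEBPB*), where 18.3% of all genes did. Without PL sample 2 the number was 7, under median ratio scaling 5 and under quantile scaling 8, with no share of all genes at hand. Against the other 4 stages 6 of the 18 were higher in PL and 2 lower, where 3.03% and 27.3% of all genes were. Under each of these alternatives 10 were higher and 1 lower. Of all genes, 4.8% were then higher and 16.6% lower without PL sample 2. The shares were 7.41% and 8.96% under median ratio and 7.39% and 9.48% under quantile scaling. *CEBPD*, a transcription factor of the acute-phase response, was at 48.4, 209 and 262 in PL and between 6.89 and 27.3 elsewhere. It rose from EL to PL (log2 fold change 2.66 ± 0.58, limma adjusted p = 0.022) and fell from PL to W2 (−3.09 ± 0.58, adjusted p = 0.0022). The rise did not pass without PL sample 3 or 6 or any 1 EL sample (adjusted p between 0.058 and 0.077). *CEBPB* was lower in PL, at 28.1, 111 and 40.5 against 139, 157 and 179.5 in W2 (PL to W2 log2 fold change 1.64 ± 0.39, adjusted p = 0.0075), a rise that did not pass under median ratio scaling. Its test over the stages failed with any of 14 of the 15 samples left out (adjusted p between 0.056 and 0.13). The inhibitor *NFKBIA*, at 42.5, 77.9 and 78.0 in PL, and the receptor *TNFRSF1A*, at 26.2, 57.8 and 53.2, did not pass from EL to PL or from PL to W2. Under median ratio scaling *NFKBIA* did both (EL to PL 1.08, adjusted p = 0.0063, PL to W2 −0.88, 0.0081), and *TNFRSF1A* fell from PL to W2 (−0.63, 0.019).

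Cell type markers that moved with stage are given beside these results, and their part in them was not tested. The defining neutrophil genes *MPO*, *CXCR2*, *MMP8*, *AZU1* and *CD177* were not analysed here. The 6 of 13 neutrophil markers in the table summed to no more than 28.3 in any sample, at 3.51, 19.1 and 23.1 in PL and 9.82 to 28.3 in W2. Of these 6, *ITGAM* alone passed over the stages, where 18.3% of all genes did, and it was lower in PL. Monocyte and macrophage markers, which include the cells best known for CD14, were lower in PL, where the mean of *CD14* was highest. The 10 of 12 in the table summed to 141 to 227 in PL, 225 to 379 in EL and 397 to 486 in W2. Of the 10, 7 were lower in PL than in the other 4 stages and none higher, where 27.3% of all genes were lower. Under median ratio scaling 3 of the 10 were lower and none higher, where 8.96% of all genes were lower, and the 3 were the same under quantile scaling. Within PL the sums, not rescaled, were 141, 227 and 209 in samples 2, 3 and 6. Sample 2 was lowest, as for *CD14* and for 69.2% of the 19084 genes with a PL mean of at least 1. Its median ratio was 0.566, and rescaled sums were not examined. Over the other 4 stages the median sums were 481 in MG, 429 in W2, 420 in LG and 319 in EL. The *CD14* means had the same order, though *CD14* did not differ between those stages by limma. The 7 of 8 luminal epithelial markers summed to 875, 1906 and 1838 in PL samples 2, 3 and 6 and to between 1354 and 2261 elsewhere. None of the 7 passed over the stages, where 18.3% of all genes did. Without PL sample 2, 3 of the 7 passed over the stages, and *KRT8* and *KRT18* were higher in PL than in EL (log2 fold changes 1.44 and 1.60, limma adjusted p = 0.0039 and 0.0048). With all samples *CDH1* rose from PL to W2 (1.02 ± 0.30, adjusted p = 0.021), but not under median ratio or quantile scaling.

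The 6 milk protein genes all passed over the stages and all fell from PL to W2, where 18.3% and 2.48% of all genes did. Their sum was 285004, 138798 and 91237 in PL samples 2, 3 and 6. Before rescaling, the sample with the most milk protein RNA was thus also the one with the most *PGLYRP1* and the least *LCN2*. The milk protein sum lay between 63857 and 120785 in EL, between 11906 and 29461 in MG and between 5781 and 8140 in W2. Of 4 adipocyte markers in the table, *FABP4* was at 331, 370.3 and 234 in PL against 655, 709 and 689.6 in EL (log2 fold change −1.16 ± 0.20, limma adjusted p = 0.0077), a fall that did not pass under median ratio or quantile scaling. *LEP* was at 1.56, 15.8 and 14.6 in PL and at no more than 0.622 elsewhere (EL to PL, limma adjusted p = 0.011, and 0.057 and 0.050 without EL sample 3 or 6).

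The genes whose levels followed those of *SAA3*, *LBP* and *PGLYRP1* most closely are given as a description, by Pearson's r of log2(value + 0.5) over the 15 samples among 6938 genes with a mean of at least 10 in a stage. All points share the differences between stages and the low scale of PL sample 2. For *SAA3* these were *TCN1* (r = 0.97), *LBP* (0.96), *NUPR1* (0.95), *ACTG2* (0.94) and *BHLHE40* (0.94). *TCN1*, which codes for a vitamin B12 binding protein, was at 127 to 169 in PL and at no more than 13.7 in any other sample, and unlike *LBP* and *LCN2* it was even over the 3 PL samples.

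For *LBP* the closest genes were *NUPR1* (r = 0.98), *SAA3* (0.96), LOC106507819 (0.95), *TCN1* (0.94) and LOC100522145 (0.93). *NUPR1*, a small stress-response protein gene, had a mean of 1491 in PL, 228 in EL and 33.6 in W2. For *PGLYRP1* they were the beta-casein gene *CSN2* (0.98), *MIR769* (0.97), *XDH* (0.96), *MIR769-2* (0.95) and *PIGR* (0.94). *CSN2* was at 98647, 38297 and 17661 in PL, in the same sample order as *PGLYRP1*. *MIR769* lies 135 bases from *PGLYRP1* on chromosome 6, and how reads were divided between these neighbours was not tested.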

How the data were processed

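RNA was extracted with a Takara reagent, called Trizol in the labels and RNAiso Plus in the study's methods, and sequenced from TruSeq libraries. For the authors' processing, FastQC and Trimmomatic served for read quality and trimming, HISAT2 for alignment to Sscrofa11.1, and StringTie for transcript assembly and abundance. Per transcript, the authors deposited values that they name FPKM. Whether they include the authors' removal of unwanted variation is not given in the sources used here. Each sample sums to between 997480 and 1002643, which FPKM need not do, so they behave as TPM. The values carry no reads per transcript, so no counting interval is given, and the study's read totals per library and its raw counts were not used here. Precision rests on 3 samples per stage.

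Of 61773 transcripts, 32396 were matched to RefSeq genes by accession and 276 by symbol, and 29047 were assembled transcripts kept as loci of their own, so unannotated transcripts of the 9 genes are not counted. One further annotated *TLR4* transcript, NR_120680.1, was not analysed here. Transcripts were summed per gene. Groups follow the sample titles, and near-identical samples were left out of n. limma 3.58.1 (R 4.3.3, moderated variances with trend) was fitted to log2(value + 0.5) of all 5 stages together, with Benjamini-Hochberg adjustment over all genes or all transcripts and a threshold of 0.05, so a fold change understates that of low genes. The script was tested on simulated data with known changes. Figures were drawn with matplotlib 3.10.9.

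The 9 genes and the lists were chosen with earlier results of these data known. Named from each list were the 4 genes with the highest stage mean that passed over the stages and the 2 highest that did not, and for *SAA3*, *LBP* and *PGLYRP1* the 5 genes of highest Pearson's r. *LY86*, *MAP3K7*, *IRAK1*, *NOD2*, *LPO*, *WFDC2*, *KRT8*, *KRT18*, *CDH1* and the calgranulins were named after their values were seen. *IL1A*, *IL1B*, *IL6* and *OSM* were named as genes not analysed here. Alternatives were the pseudocounts 0.1 and 1, a stage mean of at least 1, quantile normalization, median ratio scaling, a replicate block, all 6 samples, the near-identical samples averaged into 1 further sample per stage, the 2 compared stages alone, the highest transcript in place of the sum, and each sample left out.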

Additional observations from a re-analysis of the deposited data

How the results depend on the processing

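The 9 genes gave 21 calls in the 90 tests between pairs of stages, 13 in the 45 tests of 1 stage against the other 4 and 6 over the stages, their transcripts 27 calls between pairs and 7 over the stages, and the pathway lists 13 over the stages. Between pairs the genes gave 33 calls under quantile normalization, 32 under median ratio scaling and 10 with only the compared stages fitted, where the transcripts gave 6. The share of all genes called moved with the setting too. From PL to W2, 2.48% fell and 30.4% rose without rescaling, 5.99% and 7.64% under quantile normalization, and 5.66% and 7.42% under median ratio scaling. With all 6 samples per stage counted the calls were 58 (genes, pairs), 30 (genes, 1 stage against 4), 105 (transcripts, pairs), 19 (transcripts, over the stages) and 46 (pathway lists), and with the near-identical samples as 1 further sample 41 (genes, pairs), 56 (transcripts, pairs), 11 (transcripts, over the stages) and 33 (pathway lists). These settings count samples that are close to the mean of the others. With 1 sample left out, the calls ranged from 18 to 35 (genes, pairs), 8 to 23 (genes, 1 stage against 4), 5 to 8 (genes, over the stages), 23 to 42 (transcripts, pairs), 7 to 11 (transcripts, over the stages) and 9 to 21 (pathway lists), each highest without PL sample 2. The 8 calls of 1 stage against 4 were those without W2 sample 3. Called single genes did not reverse under any alternative. Several contrasts that did not pass changed sign, among them *PGLYRP1* from EL to PL under median ratio scaling. Others were *TLR4* from PL to W2 (log2 fold change −0.90 to 0.23 over the settings) and *LCN2* from MG to EL (−0.67 to 0.84). With the replicate number as a block the calls were 18 (genes, pairs), 6 (genes, 1 stage against 4), 5 (genes, over the stages), 16 (transcripts, pairs), 4 (transcripts, over the stages) and 10 (pathway lists). The numbers did not pair the samples, which come from different sows. Over 19 pairs with the same number the correlation of deviations from the stage mean ran from −0.0994 to 0.137, and 5 were over 0.1. Over 71 pairs with different numbers it reached 0.182, and 14 were over 0.1. MG sample 1, LG sample 3, EL sample 4, PL sample 6 and W2 sample 6 correlated positively in every pair. Each also had the highest *HP* and *TLR2* of its stage. Such shared deviations were not allowed for in the limma or permutation tests, and their source was not tested. The cause of the changes in calls between settings was not tested. What depth limits was not assessed, since the values used carry no reads per transcript.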
